A study of Mus musculus with 24 samples.

Results

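All 24 libraries of the study entered a single comparison, in which 18 libraries from phthalate-exposed mice were set as one side against 6 libraries from vehicle-treated mice. The exposed side was made of the 6 libraries labelled DBP (dibutyl phthalate), the 6 labelled DEHP (di(2-ethylhexyl) phthalate) and the 6 labelled with both, called the mixture here. The control side was the 6 libraries labelled Control (50% DMSO). The study sequenced small RNA of epididymosomes, the vesicles of the cauda epididymis, from adult C57BL/6J males that were 7 to 8 weeks old when dosing began. Compounds were delivered from surgically implanted osmotic pumps over 6 weeks, at 2.5 mg per kg per day of one compound, or of each compound in the mixture, so the mixture carried the sum of both single doses. Every mouse, controls included, had undergone pump surgery, and the labels name 50% DMSO as the vehicle. The vesicle preparation was the supernatant of cauda fluid after sperm had been pelleted, so the labels describe no step that separates vesicles by their cell of origin. The question was which RNAs, if any, shifted in the same direction under all exposures.

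Epididymosomes are released by the epithelium that lines the epididymis and pass protein and RNA to sperm as they mature and are stored. Their small RNA is rich in fragments of tRNA, together with miRNAs, which pair with mRNAs through a short seed, and reads assigned to piRNAs, which guide PIWI proteins in germ cells. DBP and DEHP are plasticisers, and both are known in rodents for lowering androgen production and for activating peroxisome proliferator-activated receptors.

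The miRNA entries on which the description turns are shown first, with sequences from RefSeq for GRCm38.p6. The 2 miRNA entries with most reads were both hairpins, mmu-mir-1961 at chr5:92788451-92788562 (minus strand) and mmu-mir-1928 at chr1:74206554-74206620 (minus strand), and they are shown whole because the tables count reads on the hairpin and not on an arm.
mmu-mir-1961: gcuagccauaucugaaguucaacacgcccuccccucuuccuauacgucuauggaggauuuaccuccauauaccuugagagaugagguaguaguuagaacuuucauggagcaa
mmu-mir-1928: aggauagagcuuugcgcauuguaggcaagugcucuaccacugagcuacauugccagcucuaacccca
The 2 mature miRNAs of the miR-10 and miR-125 family that were tested share one seed, and mmu-miR-125a-5p was the mature miRNA with the smallest p. The 2 let-7 arms with most reads share another. Capitals mark bases 2 to 8, the seed.
mmu-miR-125a-5p: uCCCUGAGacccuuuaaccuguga
mmu-miR-125b-5p: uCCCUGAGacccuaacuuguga
mmu-let-7c-5p: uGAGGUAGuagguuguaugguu
mmu-let-7a-5p: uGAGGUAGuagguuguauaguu
The mitochondrial tRNA for glutamine, mt-Tq, is shown as its GENCODE M21 transcript (chrM:3772-3842, minus strand, GRCm38), because it was the mitochondrial tRNA with the smallest p.
mt-Tq: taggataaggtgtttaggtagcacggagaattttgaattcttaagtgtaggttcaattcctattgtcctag

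The libraries held 7.94 to 14.7 M reads (M, 1000000 reads) over the 6 classes of the stated mapping order, which are miRNA, tRNA, piRNA, rRNA, circRNA and lncRNA. A class named otherRNA, absent from that order, was fitted apart. In every group libraries 1 to 3 were run on lane 6 and libraries 4 to 6 on lane 7, as the run names give it, and lane was a term in the fits reported unless another is named. Libraries 5 and 6 of each group stood apart in composition: their tRNA share in the exposed groups was 27.7 to 34.5%, against 34.7 to 43.8% in libraries 1 to 4. Among controls, replicates 2, 5 and 6 had low tRNA shares, 28.4, 30.5 and 28.3%, and replicate 4 had the highest, 42.2%. Marker miRNAs of other cells that cauda fluid could hold were near the limit of detection apart from muscle. The 5 muscle miRNAs summed to 10.4 to 28.2 RPM (reads per 1000000 reads of the 6 classes) in controls and 4.98 to 34.8 in exposed libraries, all 5 having reads. The 3 erythrocyte miRNAs, of which 2 had no read in any library, reached at most 0.202 RPM in a control and 0.293 in an exposed library. The 7 testis and sperm miRNAs reached at most 1.17 and 0.903, the 5 leukocyte miRNAs 0.855 and 1.42, the 7 epithelial miRNAs 1.25 and 2.44, and the single liver miRNA 0.101 and 0.446. The epithelial list, which should mark the vesicles' labelled source, was thus itself barely read.

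No RNA differed between exposed and control epididymosomes at an adjusted p under 0.05. In edgeR's quasi-likelihood test with Benjamini-Hochberg adjustment, 0 of 7454 features of the 6 classes passed (0%), and the smallest adjusted p was 1.00. DESeq2 and limma's voom also called 0. At an unadjusted p under 0.05 edgeR counted 286 features (3.84% of those tested), 143 higher (1.92%) and 143 lower (1.92%) in exposed libraries, while DESeq2 counted 276 and voom 465. Of 3732 otherRNA transcripts, 0 passed in any of the 3 tools, and 89 (2.38%; 58 higher, 31 lower) had an unadjusted p under 0.05, against 77 by DESeq2 and 155 by voom. The median log2 fold change was -0.01 over the 6 classes and 0.01 over otherRNA, with a typical standard error of 0.24 and 0.21. The criterion named in the labels, a fold change of at least 1.5 with p under 0.01, taken here as unadjusted, was met by 22 features (0.295%), 11 higher and 11 lower. They were 12 piRNAs, 5 circRNAs, 3 lncRNAs, 2 tRNAs, 0 miRNAs and 0 rRNAs. A further 10 otherRNA transcripts met it (0.268%; 7 higher, 3 lower), or 9 higher and 1 lower when library totals replaced the TMM scaling. An exact permutation of the labels within lane, on log2(CPM + 0.5) and added after the data were seen, also called 0 in both sets, with 249 and 94 at unadjusted p under 0.05 and smallest adjusted p of 0.308 and 0.998. Below, log2 fold changes and SE are from edgeR, counts and rankings of features use its p, and p values printed for single features are from that exact test. Features were named for a small edgeR p on the same libraries, so their exact p is not independent of the choice, and none passed adjustment over all features. In no feature of either set did the 18 exposed libraries lie wholly above or below the 6 controls (0%). The count of 22 depended on single libraries: leaving out control replicate 4 gave 121, control replicate 1 gave 41, control replicate 5 gave 35 and mixture replicate 5 gave 42. The count of 10 in otherRNA was 19 without control replicate 4 and 6 without control replicate 5. The edgeR counts at unadjusted p under 0.05 became 601 and 185 when control replicate 4 was left out.

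**Figure D1:**
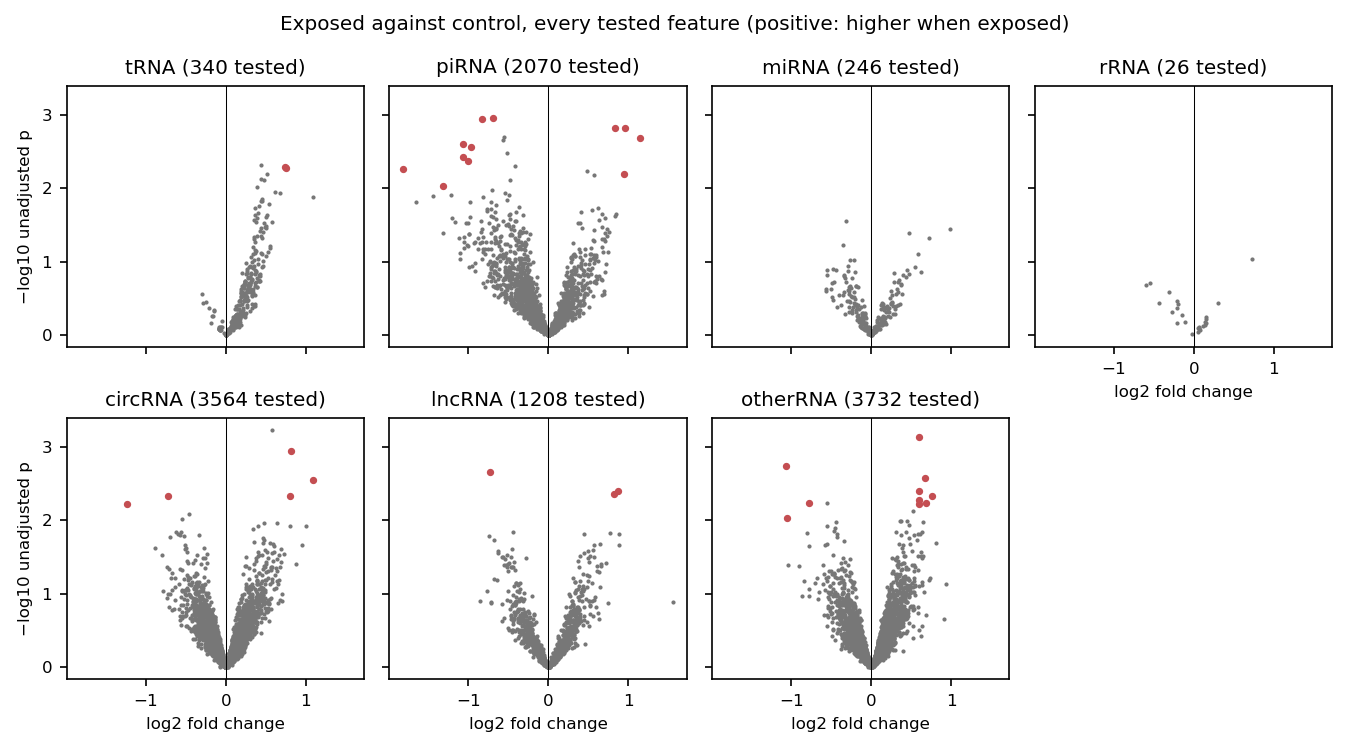
Log2 fold change of exposed against control (x axis) and −log10 of the unadjusted p from edgeR (y axis) for every tested feature, one panel per RNA class; red points are the 22 features and the 10 otherRNA transcripts that met the labels' criterion. The tRNA panel leans to the right, with 312 of 340 tRNAs above 0.

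Each class was next compared by its share of a library's reads. The rRNA share had the smallest p. In controls it ran from 4.06 to 6.13% with a median of 5.17%, and in exposed libraries from 3.28 to 5.89% with a median of 4.25%. The ranges overlapped, and 2 of 18 exposed libraries exceeded the mean of controls. The difference in mean was -0.691 percentage points (95% interval -1.32 to -0.0636; exact two-sided permutation within lane, p = 0.0323, adjusted p over 7 classes 0.226). It was -0.910 on lane 6 and -0.472 on lane 7. Without control replicate 3 it was -0.539 (exact permutation p = 0.122). The share was mainly that of a single transcript, ENSMUST00000198477.2 (11988716 reads over all libraries), whose TMM-scaled level is given below. The 3 exposures, each set against the same 6 controls, averaged 4.39% (DBP), 4.30% (DEHP) and 4.55% (mixture). Because the share is relative to all reads of the 6 classes, a lower share need not mean less rRNA. In bulk vesicle RNA, fewer vesicles of a kind and less of an RNA per vesicle cannot be told apart.

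The tRNA share ran from 28.3 to 42.2% in controls (median 32.5%) and from 27.7 to 43.8% in exposed libraries (median 36.6%). The exposed mean was higher by 2.77 percentage points (95% interval -1.68 to 7.21; exact permutation p = 0.207, adjusted p 0.416). The lanes differed in sign. On lane 6 the difference was 6.04 points (exact permutation p = 0.0409, where the smallest p a single lane allows is 0.00455), and on lane 7 it was -0.494 points (exact permutation p = 0.882). Over both lanes, omitting control replicate 4 gave a difference of 4.90 points, omitting control replicate 2 gave 1.46 and omitting control replicate 6 gave 1.44. The other 5 classes had exact permutation p from 0.225 to 0.416: piRNA -1.43 points, miRNA -0.263, circRNA -0.323, lncRNA -0.0652 and otherRNA, as a share of all 7 classes, -0.186.

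**Figure D2:**
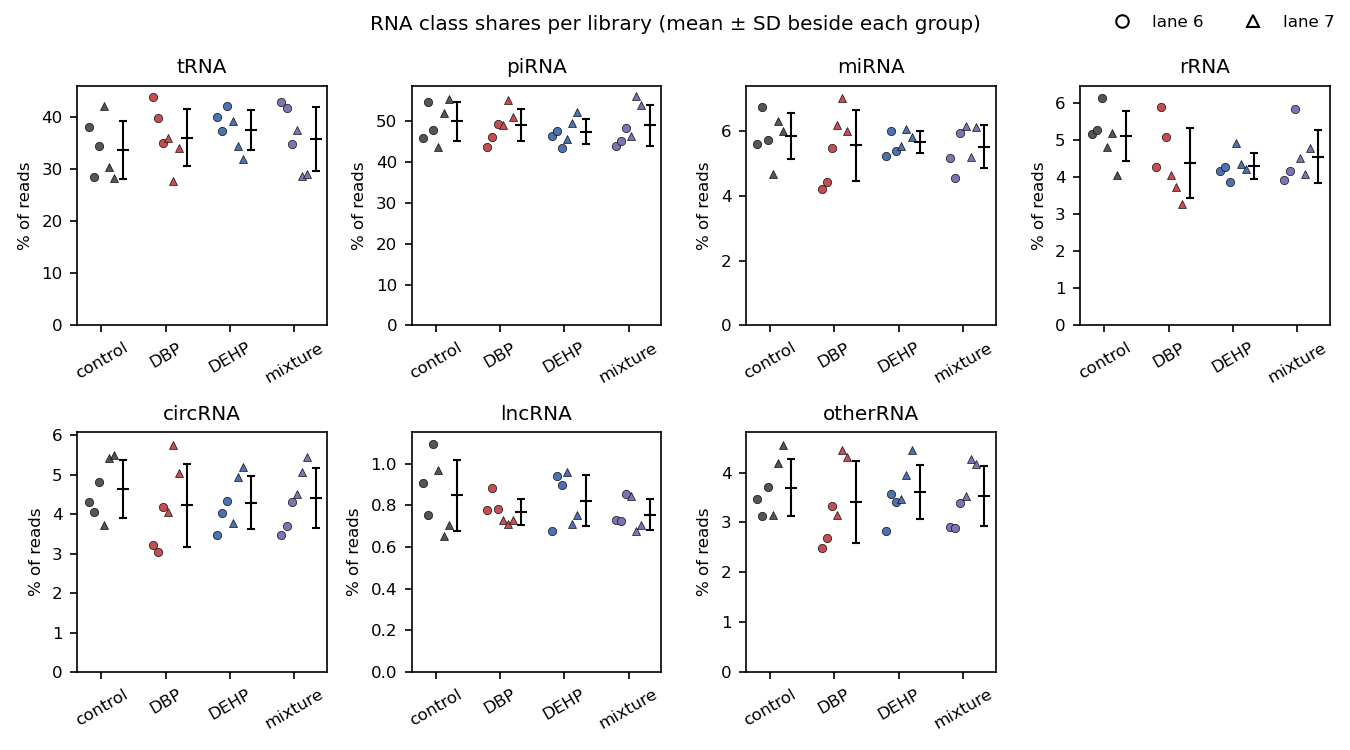
Share of reads in each RNA class (y axis, percent) for every library, by group; circles are lane 6, triangles lane 7, and the bar beside each group is its mean ± SD over 6 libraries. The rRNA means are 5.10% in controls and 4.39, 4.30 and 4.55% in the exposed groups, with overlapping libraries.

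Nuclear tRNAs carry amino acids to the ribosome, and in epididymosomes and sperm their reads come largely from fragments. As a class they leaned to the exposed side: 312 of 340 tested tRNAs had a higher fitted level and the median log2 fold change was 0.19, against -0.01 over all 7454 features. In all, 36 tRNAs had an unadjusted p under 0.05 (10.6%) and 7 a p under 0.01 (2.06%), every one of them higher in exposed libraries, and none passed adjustment. The exact test gave 37, all higher. Near-identical tRNA copies share reads, and no source used here says how the tables divide them, so members of a family are not separate measurements. The lean was uneven across lanes. On lane 6 alone 131 of 340 tRNAs had p under 0.05, all higher, with a median of 0.56. Over all 6 classes 576 of 6893 features had p under 0.05 on that lane. On lane 7 alone 0 of 339 tRNAs were higher and 8 lower at p under 0.05, with a median of -0.09. Over all 6 classes 205 of 8328 features had p under 0.05 there. Scaling tRNAs on their own, by the total and TMM factors of the class, takes out any shift that the class shares. It gave 5 higher and 6 lower at p under 0.05 and a median of -0.06. By its construction it cannot show whether the class as a whole moved. Leaving out control replicate 4 gave 90 higher, in a fit where 601 of 7819 features of the 6 classes had p under 0.05. Leaving out control replicate 1 gave 13, where 264 of 7763 features did.

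Tyrosine tRNAs had the highest family median in the fit to all libraries, though histidine tRNAs exceeded them on lane 6, with tRNAs scaled on their own, by voom, without control replicate 4 and without the mixture group. All 9 tested tRNA-Tyr genes were higher, with a median of 0.50, and 8 had p under 0.05. In tRNA-Tyr-GTA-1-5, controls ran from 1.43 to 3.40 CPM (counts per 1000000 reads of the TMM-scaled library) with a median of 1.70, and exposed libraries from 1.46 to 6.89 with a median of 3.11. In 16 of 18 exposed libraries the level exceeded the control mean, though the groups overlapped. Its log2 fold change was 0.75 ± 0.24 (SE; exact p = 0.00603). The most-read family member, tRNA-Tyr-GTA-2-1, averaged 31.4 ± 10.8 CPM in controls and 43.0 ± 12.1 in exposed libraries (log2 fold change 0.45 ± 0.22, exact p = 0.0579). The family median was 0.80 on lane 6, 0.17 on lane 7 and 0.22 with tRNAs scaled on their own, where 2 had p under 0.05. The count of 8 became 2 without control replicate 1, 3 without control replicate 2, 4 without DEHP replicate 5, and 5 without any one of control replicates 3 and 4, DBP replicates 3 and 5, DEHP replicate 6 and mixture replicate 6. It was 0 on lane 7, 3 without the DBP group and 4 without the mixture group.

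All 26 leucine tRNAs were higher with a median of 0.31, and 8 had p under 0.05, each of them a gene of the AAG or CAA anticodon. With tRNAs scaled on their own 0 did, 17 of 26 were higher and the median was 0.09; on lane 7 alone 0 did and 15 of 26 were higher; the count was 5 without control replicate 2, 2 with no filter and 13 by voom. In tRNA-Leu-AAG-2-1, controls ran from 104 to 144 CPM (median 117) and exposed libraries from 122 to 259 (median 161). Every exposed library exceeded the control mean, but the groups overlapped. The log2 fold change was 0.44 ± 0.14 (exact p = 0.00128), short of the 1.5-fold criterion, and it was 0.17 with tRNAs scaled on their own. For tRNA-Leu-CAA-4-1 the means were 50.8 ± 14.6 and 71.3 ± 16.2 CPM (0.51 ± 0.17, exact p = 0.00498). The most-read leucine tRNA, tRNA-Leu-TAG-3-1, averaged 687 ± 222 in controls and 831 ± 243 in exposed libraries (0.28 ± 0.21, exact p = 0.192).

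Threonine and tryptophan tRNAs also had several small p. In tRNA-Thr, 7 of 17 had p under 0.05 (median 0.34), led by tRNA-Thr-TGT-1-1 at 7.50 ± 1.77 against 10.2 ± 2.02 CPM (0.44 ± 0.15, exact p = 0.00527). That count was 1 without control replicate 1 and 0 with tRNAs scaled on their own, where the median was 0.11. It was also 0 on lane 7 alone (median 0.13). In tRNA-Trp, 6 of 8 did (median 0.36), and the most-read, tRNA-Trp-CCA-5-1, ran from 105 to 187 CPM in controls and from 138 to 283 in exposed libraries (0.36 ± 0.15, exact p = 0.0122). The tryptophan count was 0 without control replicate 1, 1 without control replicate 3, 2 without control replicate 6, 3 without control replicate 4 or DEHP replicate 5, 1 without the DBP group, 3 without the mixture group, 0 with no filter and 0 with tRNAs scaled on their own (median 0.07). Lysine gave 2 of 24, of which tRNA-Lys-CTT-1-1 met the labels' criterion (0.75 ± 0.25, exact p = 0.00717; controls 0.537 to 1.73 CPM, exposed 0.868 to 3.41). Alanine (32 tested), arginine (24), cysteine (19), isoleucine (13) and serine (22) gave 1 each. The share with p under 0.05 was 10.6% over all tRNAs and 3.84% over all features of the 6 classes. Histidine tRNAs, whose 5′ fragments are abundant in mouse sperm, had a median of 0.42, with 0 of 10 at p under 0.05 in edgeR and 9 of 10 in voom, and the family median was 1.18 on lane 6 and -0.20 on lane 7. Over all 23 families the median was above 0 in 22, in 21 on lane 6, in 7 on lane 7 and in 9 with tRNAs scaled on their own.

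**Figure D3:**
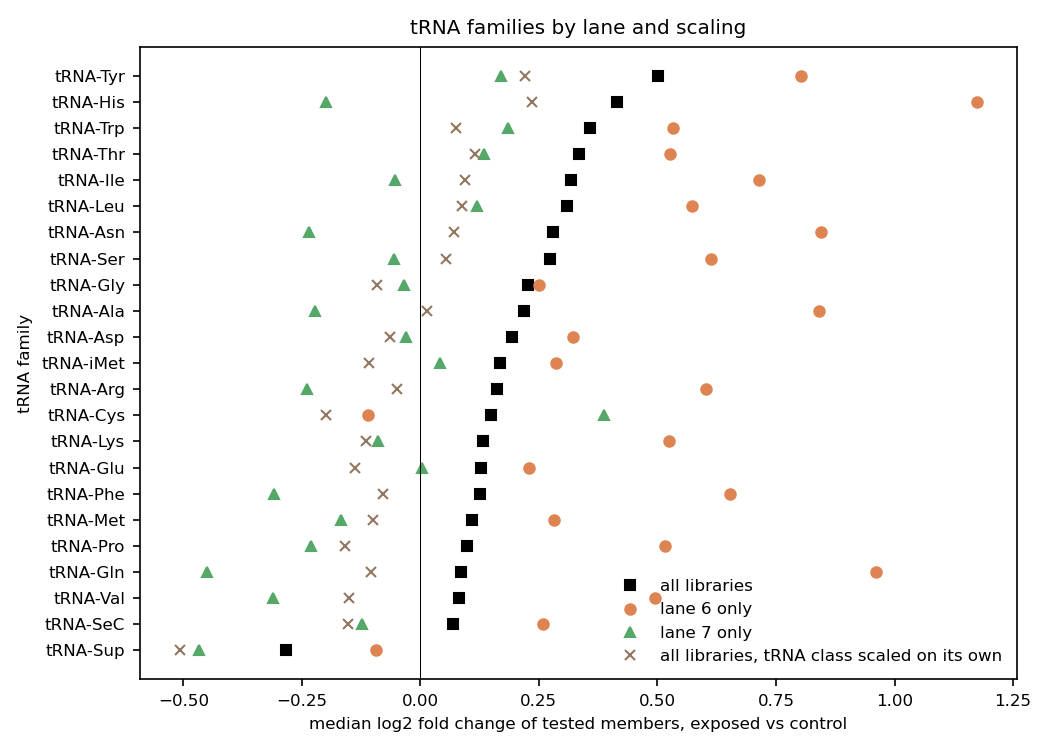
Median log2 fold change of exposed against control (x axis) over the tested members of each tRNA family (y axis), for all libraries, each lane alone, and all libraries with the tRNA class scaled on its own. Lane 6 medians lie above 0 in 21 of 23 families and lane 7 medians in 7 of 23. Scaling the class on its own takes out any shift that all tRNAs share.

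The tRNAs that supply most fragments in sperm (Gly-GCC, Gly-CCC, Glu-CTC, Glu-TTC, Val-CAC, Val-AAC, Lys-CTT and His-GTG) leaned to the exposed side like the class. Of 78 tested, 73 were higher, and the median was 0.15, against 0.19 over all tRNAs. Only 2 had p under 0.05, both Lys-CTT genes. Their summed level averaged 102899 RPM in controls and 113352 in exposed libraries, with overlapping ranges. The most-read glutamate gene, tRNA-Glu-CTC-1-9, ran from 4283 to 9685 CPM in controls and from 4021 to 15587 in exposed libraries (0.12 ± 0.21, exact p = 0.574). The most-read glycine gene had lower values: tRNA-Gly-CCC-1-2 averaged 7258 ± 1828 CPM in controls and 6652 ± 2106 in exposed libraries (-0.15 ± 0.20, exact p = 0.392). The tRNA with most reads of all, tRNA-Arg-CCG-3-1, had a log2 fold change of 0.00 with a 95% interval of -0.55 to 0.55. Controls ran from 69888 to 234928 CPM and exposed libraries from 64157 to 242788, so the groups covered nearly the same range.

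Mitochondrial tRNAs, transcribed from the mitochondrial genome and counted in otherRNA, leaned the other way. Of 22, 10 were tested, and 9 of these were lower in exposed libraries, with a median of -0.35 against 0.01 over all otherRNA. mt-Tq, chosen after its values were seen, ran from 71.6 to 376 in controls and from 65.1 to 232 in exposed libraries CPM, here per 1000000 otherRNA reads. The exposed mean was 133 ± 50.2 and the control mean 227 ± 137, and 1 of 18 exposed libraries lay above the latter. The log2 fold change was -0.78 ± 0.26 (exact p = 0.086), and -0.83, -0.77 and -0.74 for DBP, DEHP and the mixture. The most-read, mt-Tp for proline, gave -0.34 ± 0.40 (exact p = 0.603). The lean rested on control replicate 5: without it 5 of the 10 were higher and the median was 0.000786. Mitochondrial rRNA, counted in the rRNA class, gave -0.60 ± 0.46 for mt-Rnr2 (exact p = 0.357), or -0.07 without control replicate 2 and -0.97 without DEHP replicate 2, with controls from 208 to 1767 CPM and exposed libraries from 154 to 1691.

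No miRNA met the labels' criterion, and 4 of 246 tested entries had p under 0.05 (1.63%), 3 of them higher (1.22%). The class median was -0.03. The hairpin mmu-mir-3472 averaged 10.1 ± 1.78 CPM in controls and 8.17 ± 1.48 in exposed libraries, whose highest value was 10.1; none exceeded the mean of controls (-0.31 ± 0.13, exact p = 0.024). Mature mmu-miR-125a-5p, a miRNA conserved in vertebrates that shares its seed with mmu-miR-125b-5p, ran from 0.0596 to 1.15 CPM in controls and from 0.193 to 2.35 in exposed libraries. Its log2 fold change was 0.98 ± 0.44 (exact p = 0.0347) on 199 reads over all libraries. mmu-miR-125b-5p was at 0.47 ± 0.31 (exact p = 0.187). The hairpins mmu-mir-669e (0.48 ± 0.22, exact p = 0.053) and mmu-mir-6412 (0.72 ± 0.35, exact p = 0.0323) were also higher, with overlapping groups.

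Among well-read miRNA entries, groups covered similar ranges. The hairpin mmu-mir-1961 ran from 4644 to 13343 CPM in controls and from 2675 to 12016 in exposed libraries (-0.23 ± 0.22, exact p = 0.283), and mmu-mir-1928 from 4483 to 12963 and from 3350.5 to 9568 (-0.06 ± 0.24, exact p = 0.796). Mature let-7, the family that restrains growth genes, summed to 7.33 to 11.9 RPM in controls and 5.25 to 13.7 in exposed libraries over 19 entries. Its 4 tested arms split evenly, with mmu-let-7c-5p at 0.24 ± 0.27 (exact p = 0.524) and mmu-let-7a-5p at -0.18 ± 0.22 (exact p = 0.41). The miR-34, miR-200, miR-17, miR-30 and miR-27 families, each with its related members, and the set of sperm miRNAs linked to paternal stress in mice, had 0 members with enough reads to test. Of miR-29, 1 arm was tested, mmu-miR-29a-3p, at -0.13 ± 0.34 (exact p = 0.65).

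Reads assigned to piRNAs leaned slightly to the control side, with a median of -0.07 over 2070 tested. An unadjusted p under 0.05 was found in 110 (5.31%), of which 85 were lower (4.11%) and 25 higher (1.21%) in exposed libraries. At p under 0.01 there were 13 lower (0.628%) and 6 higher (0.29%). The exact test gave 54 lower and 22 higher at p under 0.05. With piRNAs scaled on their own, which takes out any shift shared by the class, 41 were lower and 44 higher. The edgeR counts became 39 lower and 21 higher without control replicate 2, 199 and 65 without control replicate 4, 129 and 30 without mixture replicate 5, 107 and 16 without control replicate 1, and 74 and 38 without DEHP replicate 4. On lane 6 alone they were 162 and 57, and on lane 7 alone 38 and 11. The labels' criterion was met by 8 lower and 4 higher. piR-mmu-4612243 ran from 1.39 to 3.33 CPM in controls (median 1.90) and from 0.533 to 2.02 in exposed libraries (median 1.24), with no exposed library above the control mean. Its log2 fold change was -0.70 ± 0.19 (exact p = 0.00219). piR-mmu-8080339 ran from 0.588 to 1.50 and from 0.251 to 1.13 CPM (-0.83 ± 0.23, exact p = 0.00128).

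Higher piRNAs included piR-mmu-23561793. Its controls ran from 4.77 to 11.9 CPM (median 6.93) and exposed libraries from 4.30 to 19.5 (median 12.4), and 16 of 18 exposed libraries exceeded that group's mean. Its log2 fold change was 0.84 ± 0.24 (exact p = 0.0039). piR-mmu-73346 ran from 0.119 to 0.924 and from 0.386 to 1.72 CPM (0.96 ± 0.27, exact p = 0.0013). The 2 entries with most reads, piR-mmu-30344366 (0.18 ± 0.32, exact p = 0.304) and piR-mmu-5890133 (-0.27 ± 0.37, exact p = 0.252), varied widely within both sides. Controls of piR-mmu-5890133 ran from 35718 to 80727 CPM and exposed libraries from 13625 to 125124.

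The piRNA class was also where the filter on low counts mattered. With all 60115 features that had a read, 32136 of them piRNAs, edgeR called 34 at adjusted p under 0.05. Of the 34, 31 were piRNAs, every one lower in exposed libraries. In the filtered fit 32 of the 34 had been tested, and 21 of them had an unadjusted p under 0.05. Over all 32 the unadjusted edgeR p ran from 0.00248 to 0.134. In the exact test of the same 32, 3 had p under 0.05, and the range was from 0.003 to 0.896. Their levels spread widely among controls. piR-mmu-5869149, for example, chosen after its values were seen, ran from 174 to 5728 CPM in controls (median 766) and from 65.8 to 1958 in exposed libraries (median 550.2; exact p = 0.437).

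Ribosomal RNA was tested in 26 transcripts, with a median of 0.05, and 0 had an unadjusted p under 0.05 in edgeR or in the exact test. The transcript that held most rRNA reads, ENSMUST00000198477.2, which had no entry in GENCODE M21, ran from 28916 to 69535 CPM in controls and from 25866 to 93838 in exposed libraries (-0.21 ± 0.22, exact p = 0.232).

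Circular RNAs, formed by back-splicing of host genes, held the feature with the smallest edgeR p. The counts are reads per circRNA reference, and no source used here says whether a read had to cross the back-splice junction. Reads of circular and linear transcripts of a host gene therefore cannot be told apart. Among 3564 tested, 88 (2.47%) had p under 0.05, 55 higher and 33 lower. mmu_circ_0012943, hosted by Gm15492, ran from 1.39 to 2.76 CPM in controls (median 1.89) and from 2.39 to 4.86 in exposed libraries (median 2.79). All 18 exposed libraries exceeded the control mean, but the highest control lay inside the exposed range. Its log2 fold change was 0.58 ± 0.15 (exact p = 8.26e-05), and 0.62, 0.59 and 0.55 for DBP, DEHP and the mixture. mmu_circ_0003188, hosted by Epn2, which encodes an endocytic adaptor of the epsin family, ran from 0.231 to 0.672 CPM in controls and from 0.606 to 1.28 in exposed libraries, again with 18 of 18 above the control mean. Its log2 fold change was 0.81 ± 0.21 on 210 reads in all (exact p = 4.13e-05, where the smallest possible is 2.07e-05, adjusted p 0.308). Its values for DBP, DEHP and the mixture were 0.81, 0.77 and 0.85.

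Lower circRNAs included mmu_circ_0008386, hosted by Dcaf6, which encodes a substrate receptor of a ubiquitin ligase. It ran from 0.709 to 2.89 CPM in controls and from 0.533 to 1.60 in exposed libraries, none of them above the control mean (-0.73 ± 0.23, exact p = 0.0109). mmu_circ_0007203, with no host named, was at -1.24 ± 0.41 (exact p = 0.0145), or -0.74 without control replicate 2. It had 225 reads in all, in 22 of 24 libraries, with 0 in DBP replicates 1 and 2. Of 12 tested circRNAs from nuclear receptor and cofactor genes, 6 were higher and 6 lower with 0 at p under 0.05. The most-read, from Rxra, the partner of peroxisome proliferator-activated receptors, ran from 116 to 262 CPM in controls and from 52.6 to 217 in exposed libraries (-0.38 ± 0.22, exact p = 0.102). Of 31 from vesicle trafficking genes 16 were higher and 15 lower, and 1 had p under 0.05, from Vps13d (0.41 ± 0.18, exact p = 0.0331). Of 7 from small RNA pathway genes, 2 were higher and 5 lower, with the most-read from Tnrc6c, a silencing complex scaffold, at -0.11 ± 0.15 (exact p = 0.535).

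Long non-coding RNAs split evenly, with 24 higher and 24 lower at p under 0.05 of 1208 (3.97%). Gm40915 (chromosome 13, 37616964 to 37627571, minus strand, GRCm38; a lincRNA) ran from 0.962 to 2.31 CPM in controls and from 0.596 to 1.76 in exposed libraries, with 1 of 18 above the control mean (-0.74 ± 0.22, exact p = 0.00283). The lincRNAs 4930570E03Rik and Gm4425 were higher, at 0.87 ± 0.28 (exact p = 0.0039) and 0.82 ± 0.26 (exact p = 0.00436), and in each 17 of 18 exposed libraries exceeded the mean of controls. Their groups overlapped: 4930570E03Rik ran from 0.157 to 0.924 CPM in controls and from 0.303 to 1.57 in exposed libraries.

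Among 43 tested transcripts of well-known lncRNAs, 20 were higher and 23 lower. Malat1, a nuclear RNA of most cells, averaged 144 ± 30.9 CPM in controls and 145 ± 19.3 in exposed libraries (0.02 ± 0.13, exact p = 0.767). Kcnq1ot1, an imprinted RNA annotated in otherRNA, was at -0.03 ± 0.12 (exact p = 0.647). Those with an edgeR p under 0.05 were Miat (-0.44 ± 0.17, exact p = 0.0273), Xist (0.37 ± 0.17, exact p = 0.0339) and a retained-intron transcript of Gas5, a snoRNA host (-1.06 ± 0.38, exact p = 0.0662). The Gas5 transcript ran from 9.34 to 113 in controls and from 2.51 to 40.8 CPM in exposed libraries.

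In otherRNA the smallest edgeR p was that of Ppp2r2cos (chromosome 5, minus strand), annotated as antisense to the gene of a regulatory subunit of protein phosphatase 2A. Because the counting strand is not stated, its reads cannot be told apart from those of its partner. Controls ran from 33.9 to 72.4 CPM (median 50.0) and exposed libraries from 47.8 to 97.7 (median 73.9), with 17 of 18 above the control mean. The log2 fold change was 0.60 ± 0.16 (exact p = 0.00118), and 0.60, 0.57 and 0.61 for DBP, DEHP and the mixture. 1600017P15Rik was at 0.67 ± 0.20 (exact p = 0.00326) and Gm22453 at -0.55 ± 0.18 (exact p = 0.00347). Gm44949 had -1.06 ± 0.31 (exact p = 0.0574), but its controls ran from 40.8 to 75.1 apart from replicate 6 at 373, and without that library the log2 fold change was -0.16.

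Several well-read structural RNAs in otherRNA had fold changes near 0. The signal recognition particle RNA Rn7s2, part of the machinery that targets proteins to membranes, averaged 80739.5 ± 16831 CPM in controls and 80908 ± 14828 in exposed libraries (0.00 ± 0.19, exact p = 0.992). Rny3, a Y RNA, was at 0.13 ± 0.35 (exact p = 0.974), the vault RNA Vaultrc5 at 0.00 ± 0.20 (exact p = 0.885), 7SK RNA at -0.02 ± 0.18 (exact p = 0.887) and the RNase P RNA Rpph1 at 0.05 ± 0.17 (exact p = 0.889). Of 56 C/D box snoRNAs, which guide RNA methylation, 22 were higher and 34 lower with 0 at p under 0.05 (range -0.78 to 0.38). Of 31 H/ACA box snoRNAs, which guide pseudouridylation, 15 were higher and 16 lower, and 1 had an edgeR p under 0.05, Snora41 (0.62 ± 0.27, exact p = 0.078). Spliceosomal RNAs gave 4 higher and 2 lower of 6, and Cajal body RNAs 3 and 3 of 6, again with 0 at p under 0.05.

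**Figure D4:**
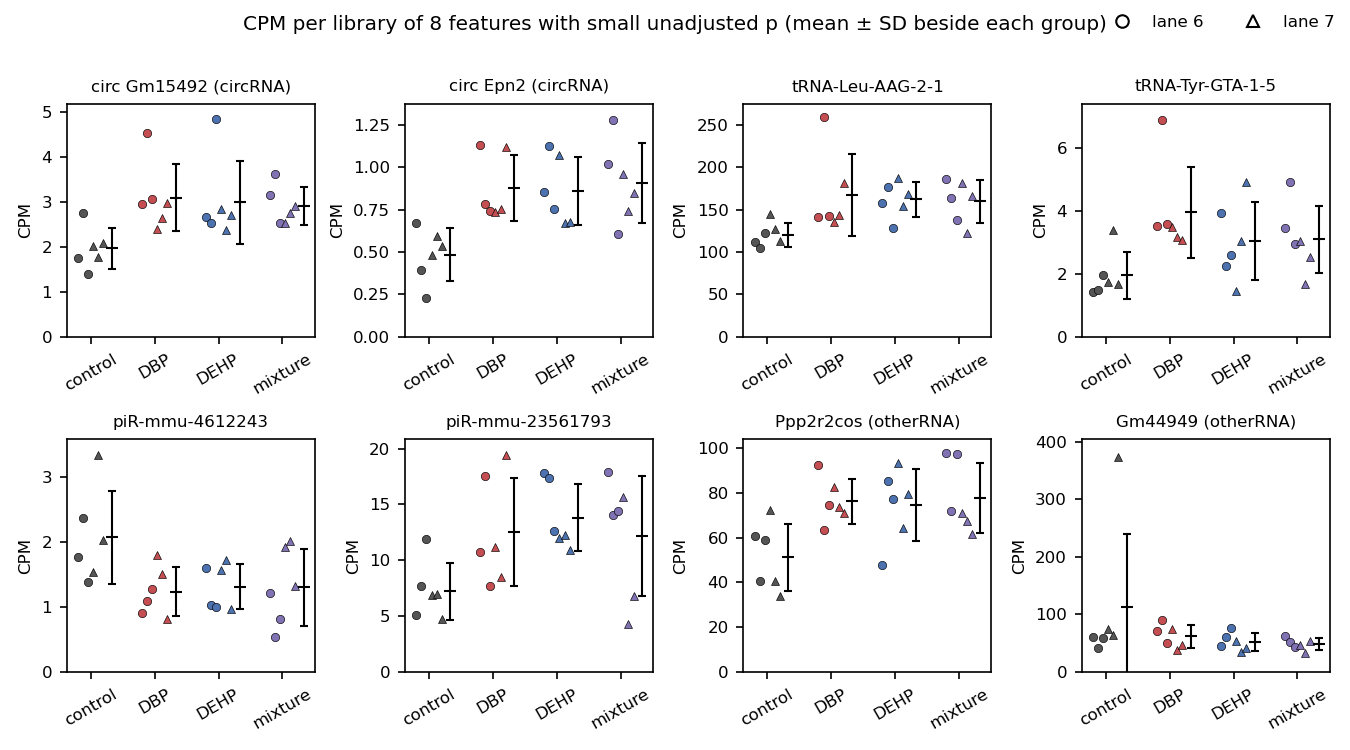
CPM per library (y axis) of 8 features with small unadjusted p, by group; circles are lane 6, triangles lane 7, and bars are the mean ± SD over 6 libraries. For Gm44949 the control bar is cut at 0 and control replicate 6 stands at 373. In every panel control and exposed libraries overlap. Ppp2r2cos and Gm44949 are scaled on otherRNA reads, the other features on reads of the 6 classes.

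Whether the pooled effects were common to the compounds was asked with a test of differences among DBP, DEHP and the mixture. The controls were not contrasted, but they were in the fit and so in its filter, scaling, lane term and error. This test found 0 of 7454 features at adjusted p under 0.05 (edgeR, 0%) and 228 at unadjusted p under 0.05 (3.06%). In otherRNA it found 0 of 3732 and 130 (3.48%). voom also found 0 in both, with 289 and 162 at unadjusted p under 0.05. Of tRNAs, 9 had p under 0.05 among the exposures (2.65%). A count of 0 does not show that the exposures had equal effects. The comparisons of DBP, DEHP and the mixture with control share the same 6 controls, so their values are given side by side. In the pooled fit, spread between exposures counts as error. Choice by a small pooled p therefore favours features with like values under the 3 exposures, and their likeness was not tested. For Gm40915 they were -1.05, -0.51 and -0.71, and for piR-mmu-8080339 -1.08, -0.86 and -0.59.

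The features with small p differed in how far they rested on single libraries. Each of the 24 libraries was left out in turn. Ppp2r2cos, mmu_circ_0003188, mmu_circ_0012943, piR-mmu-23561793 and piR-mmu-73346 had an edgeR p under 0.01 in all 24 omissions. They were chosen for a small edgeR p on these same libraries, so the omissions give no independent support. On lanes 6 and 7 alone the log2 fold changes of mmu_circ_0012943 were 0.71 and 0.44. For Ppp2r2cos the values were 0.56 on lane 6 and 0.61 on lane 7. Those of mmu_circ_0003188 were 1.02 and 0.62, and those of piR-mmu-23561793 were 0.81 and 0.84. piR-mmu-73346, with 207 reads over all libraries, was at 0.91 on lane 6 and was not among the features tested on lane 7 alone. tRNA-Tyr-GTA-1-5 had an edgeR p under 0.01 in 19 of 24 omissions, with log2 fold changes of 1.19 on lane 6 and 0.37 on lane 7.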

How the data were processed

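Small RNA libraries (Clontech SMARTer kit, per the labels' protocols) came as 168 tables, 7 per library, laid out like samtools idxstats output. The values used are counts in column 3, whole reads per reference as deposited by the authors. Per the submitters' processing notes, cutadapt, STAR 2.7.6a and edgeR were used. No source used here gives the genome build, the strand or the treatment of reads with several matches. References numbered 3212 miRNA, 408 tRNA, 85563 piRNA, 358 rRNA, 16444 circRNA, 9500 lncRNA and 9910 otherRNA. The row naming no feature and the unmapped column held 0 reads. Transcript identifiers with versions were matched to GENCODE M21 (GRCm38): 355 of 358 rRNA, 9128 of 9500 lncRNA and 9712 of 9910 otherRNA.

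The 6 classes were joined, features were kept by filterByExpr, and edgeR 4.0.16 (R 4.3.3) fitted lane plus exposed with TMM scaling (factors 0.625 to 1.31, biological coefficient of variation 34.1%). That left 3564 circRNAs, 2070 piRNAs, 1208 lncRNAs, 340 tRNAs, 246 miRNAs and 26 rRNAs. otherRNA had its own fit and scaling (28.5%). limma 3.58.1 and DESeq2 1.42.0 were alternatives. Single features were tested by exact two-sided permutation within lane on log2(CPM + 0.5), adjusted over all features tested, a choice made after seeing the data. Class shares were tested by exact permutation within lane (48400 arrangements) and intervals came from inverting that test. Intervals for features are log2 fold change ± 1.96 SE. The fits were tested on simulated counts with known changes. In the 6 classes 13.8% of features changed 1.5-fold were called at adjusted p under 0.05, 67.2% at 2-fold and 94.4% at 3-fold. In otherRNA the shares were 25, 80.3 and 98.2%. An absence of calls therefore does not show that no feature changed 1.5-fold. Named features were, per class and direction, the 2 with the smallest edgeR p under 0.01 (3 where any passed adjustment), the 2 most read per class and per list, and any whose groups did not overlap, at most 3 per direction. Outside this rule, list members and miRNAs with edgeR p under 0.05, mt-Tq and 1 piRNA were named after their values were seen. Members and lists were chosen with earlier results of these data known. The labels give 6 mice per group but do not tie libraries to animals, so p values measure the spread between these libraries. Libraries with the same number did not deviate together throughout (correlations -0.294 to 0.742), so the numbers were not used as pairs.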

Additional observations from a re-analysis of the deposited data

Results flagged for a closer look

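In 152 groups of 6 values, 9 held a highest or lowest library whose gap to its neighbour, over the group's range, passed Dixon's 95% critical value. Chance gives about 1 in 20, or 7.6. Values are in CPM. mmu_circ_0012943 (Gm15492) stood at 4.54 in DBP replicate 2, against 2.40 to 3.07 in the other libraries of that group, and at 4.86 in DEHP replicate 3, against 2.39 to 2.83. mmu_circ_0007203 stood at 1.95 in mixture replicate 5, against 0.102 to 0.470. 4930570E03Rik stood at 1.57 in DBP replicate 2, against 0.746 to 1.00. The hairpin mmu-mir-1928 stood at 12963 in control replicate 2, against 4483 to 6233. Gm44949 stood at 373 in control replicate 6, against 40.8 to 75.1, and 1600017P15Rik at 65.4 in control replicate 3, against 32.2 to 42.7, both scaled on otherRNA reads. tRNA-Tyr-GTA-1-5 stood at 3.40 in control replicate 5, against 1.43 to 1.97, and at 6.89 in DBP replicate 2, against 3.06 to 3.59. DBP replicate 2 was the high library in 3 of these groups, and the cause was not tested.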

How the results depend on the processing

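Counts at adjusted p under 0.05 stayed at 0 in both sets under every alternative run except no filter in the 6 classes, which gave 34 (1 higher, 33 lower). The count by the labels' criterion in the 6 classes, 22 in the report, was 661 with no filter, 60 by voom, 142 on lane 6 alone and 14 without the DBP group; in otherRNA, 10 in the report, it was 49 with no filter and 27 on lane 6 alone. Leaving out 1 library gave 23 to 121 and 6 to 19, and 0 at adjusted p. A term for libraries 5 and 6 gave 29 and 12. With the replicate number as a block, the counts were 32 (21 higher, 11 lower) and 11, with 0 at adjusted p and an exact permutation p of 0.0315 for the rRNA share; 6 and 4 of 24 libraries were nearest to a library of their own number.

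On lane 7 alone the share differences of miRNA (0.346 points), tRNA (-0.494), piRNA (0.651) and otherRNA (0.00648) had the opposite sign. Leaving out 1 library gave circRNA -0.614 to -0.166, lncRNA -0.106 to -0.0164, miRNA -0.509 to -0.0852, otherRNA -0.390 to -0.0382, piRNA -3.11 to -0.112, rRNA -0.848 to -0.539 and tRNA 1.44 to 4.90 points.

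Of the 17 features named for a small p, Gm44949 changed sign, to 0.19 on lane 6, and mmu_circ_0007203 was called with no filter (-1.27). Most-read features near 0 changed sign often, 70 of 560 values. On lane 6 the log2 fold changes were 0.0895 for Gm30075, 0.60 for tRNA-Pro-TGG-1-1 and 0.00592 for 0610038B21Rik. On lane 7 they were 0.15 for mmu-mir-1928, 0.28 for piR-mmu-5890133, -0.35 for piR-mmu-30344366, -0.30 for tRNA-Arg-CCG-3-1 and -0.16 for Rn7s2. tRNA-Arg-CCG-3-1 was also at -0.00105 with no filter, -0.0226 without DEHP and -0.20 with tRNAs scaled on their own. tRNA-Pro-TGG-1-1 was at 0.00652 with DESeq2 size factors, 0.0714 with library totals, 0.00649 by DESeq2, 0.27 by voom, 0.10 with the replicate block, 0.12 with the term for libraries 5 and 6, 0.13 with no lane term, 0.0859 without DEHP, 0.0821 without the mixture and 0.18 as a difference of mean log2 CPM in the exact test, chosen after seeing the data. Rn7s2 was at -0.00346 with DESeq2 size factors, -0.0165 with no filter, -0.00347 by DESeq2, -0.00336 by voom, -0.0147 without DBP, -0.0173 without the mixture and -0.0218 when joined with the 6 classes. Gm30075 was at 0.0399 without DEHP and mmu-mir-1928 at 0.0328 by voom. With 1 library left out, signs changed for Rn7s2 (-0.0557 to 0.11), 0610038B21Rik (-0.42 to 0.31), Gm30075 (-0.12 to 0.00964), AC121821.1 (-0.67 to 0.28), mmu-mir-1928 (-0.14 to 0.19), tRNA-Arg-CCG-3-1 (-0.11 to 0.37) and tRNA-Pro-TGG-1-1 (-0.19 to 0.54). The cause was not tested.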
